A study of Mus musculus with 18 samples.

Results

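Transcripts of 53 listed genes of the acute phase response, the complement system and blood clotting were followed in mouse liver. Members were the listed symbols that the array annotation holds on a probe set with a single gene symbol, each read from its brightest such probe set on average, and 50 of the 53 were measured among 17097 genes. They comprised 21 of 22 positive acute phase genes, 4 of 4 genes of acute phase signalling, 4 of 5 negative acute phase genes, 10 of 11 complement genes and 11 of 11 genes of coagulation and fibrinolysis. Orm1, Ahsg and C3 were not analysed here.

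The 18 arrays covered 2 models in which, by the stated design, loss of cholesterol through the intestinal wall was stimulated. NPC1L1-liver-transgenic mice (n = 5), with an NPC1L1 transgene in the liver as a lasting stimulus, were set against wild-type mice (n = 5), both C57BL/6. In the other model ACAT2 was targeted with an antisense oligonucleotide (ASO, n = 4), a short-term stimulus, and these mice were set against mice given a non-targeting control ASO (n = 4), both C57BL/6N. All mice were female and 6 to 8 weeks old, and the controls of the ASO model had also received an oligonucleotide. The sources used here name neither the promoter that drives the transgene nor the dose and schedule of the ASO. Samples are numbered in the labels, which do not say that each came from its own animal, so the p-values rest on a spread between samples that may be technical.

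The acute phase response is the rapid change in hepatic secretion that follows infection or injury. Interleukin-6 acts through its receptor and the transcription factor STAT3, and interleukin-1 acts through NF-kB, on hepatocytes, and C/EBP factors take part at many of the target promoters. Positive acute phase proteins, such as serum amyloid A in the mouse, then increase in plasma, while negative ones such as albumin and transthyretin decrease. The liver is also the main source of plasma complement proteins and clotting factors, and macrophages of the liver sinusoids, the Kupffer cells, are a local source of the cytokines.

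Values were robust multi-array average (RMA) signals on the log2 scale, so a difference of 1 is a doubling of signal. Array values reached at most 13.70, and 9 of the 50 genes lay on average within 1 log2 unit of their array's highest value, where differences may be compressed. Those 9 were Alb, at a mean distance of 0.07, and Ttr, Trf, Fgg, Rbp4, Fgb, Hpx, Hp and Plg. Wild type 2, ACAT2 ASO 1 and control ASO 4 had the lowest mean correlation with the other arrays of their group (0.988, 0.991 and 0.988), against 0.992 to 0.995 for the other arrays, and are called the 3 divergent arrays here. The excess of the 3′ over the 5′ Actb control signal, which grows as RNA degrades, was 0.83 on wild type 2, 0.92 on ACAT2 ASO 1 and 1.04 on control ASO 4, within the 0.83 to 1.26 seen over all arrays. The ASO's target transcript was not analysed here. The mean over 9 hepatocyte markers lay between 10.65 and 11.03 on the 18 arrays, and Pck1, one of the 9, read 3.41 to 4.25. On wild type 2 the hepatocyte mean was 10.71, the lowest of its group, against 10.93 to 11.03 on the other wild-type arrays. On ACAT2 ASO 1 (10.91) and control ASO 4 (10.93) it was within the range of the other arrays of the group.

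None of the 50 genes passed the test in either model. In limma, with Benjamini-Hochberg adjustment over all 17097 genes and a threshold of 0.05, 0 of 50 were called between transgenic and wild-type liver, where 0.228% of all genes were called. Between ACAT2 ASO and control ASO 0 of 50 were called, where 0.597% of all genes were. The test of the difference between the 2 effects also called 0 of 50, against 1.07% of all genes, and 2 of 50 had an unadjusted limma p under 0.05, against 15.4%. At an unadjusted limma p under 0.05, 2 of 50 members (4%) passed in the transgenic comparison, against 10.9% of all genes, and 4 of 50 (8%) in the ASO comparison, against 13.3%. The median change over the 50 was -0.02 in the transgenic comparison and 0.01 in the ASO comparison, beside 0.0058 and -0.00056 over all genes. The members with the largest changes, serum amyloid A genes among them, were those that differed most between arrays of the same group.

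**Figure D1:**
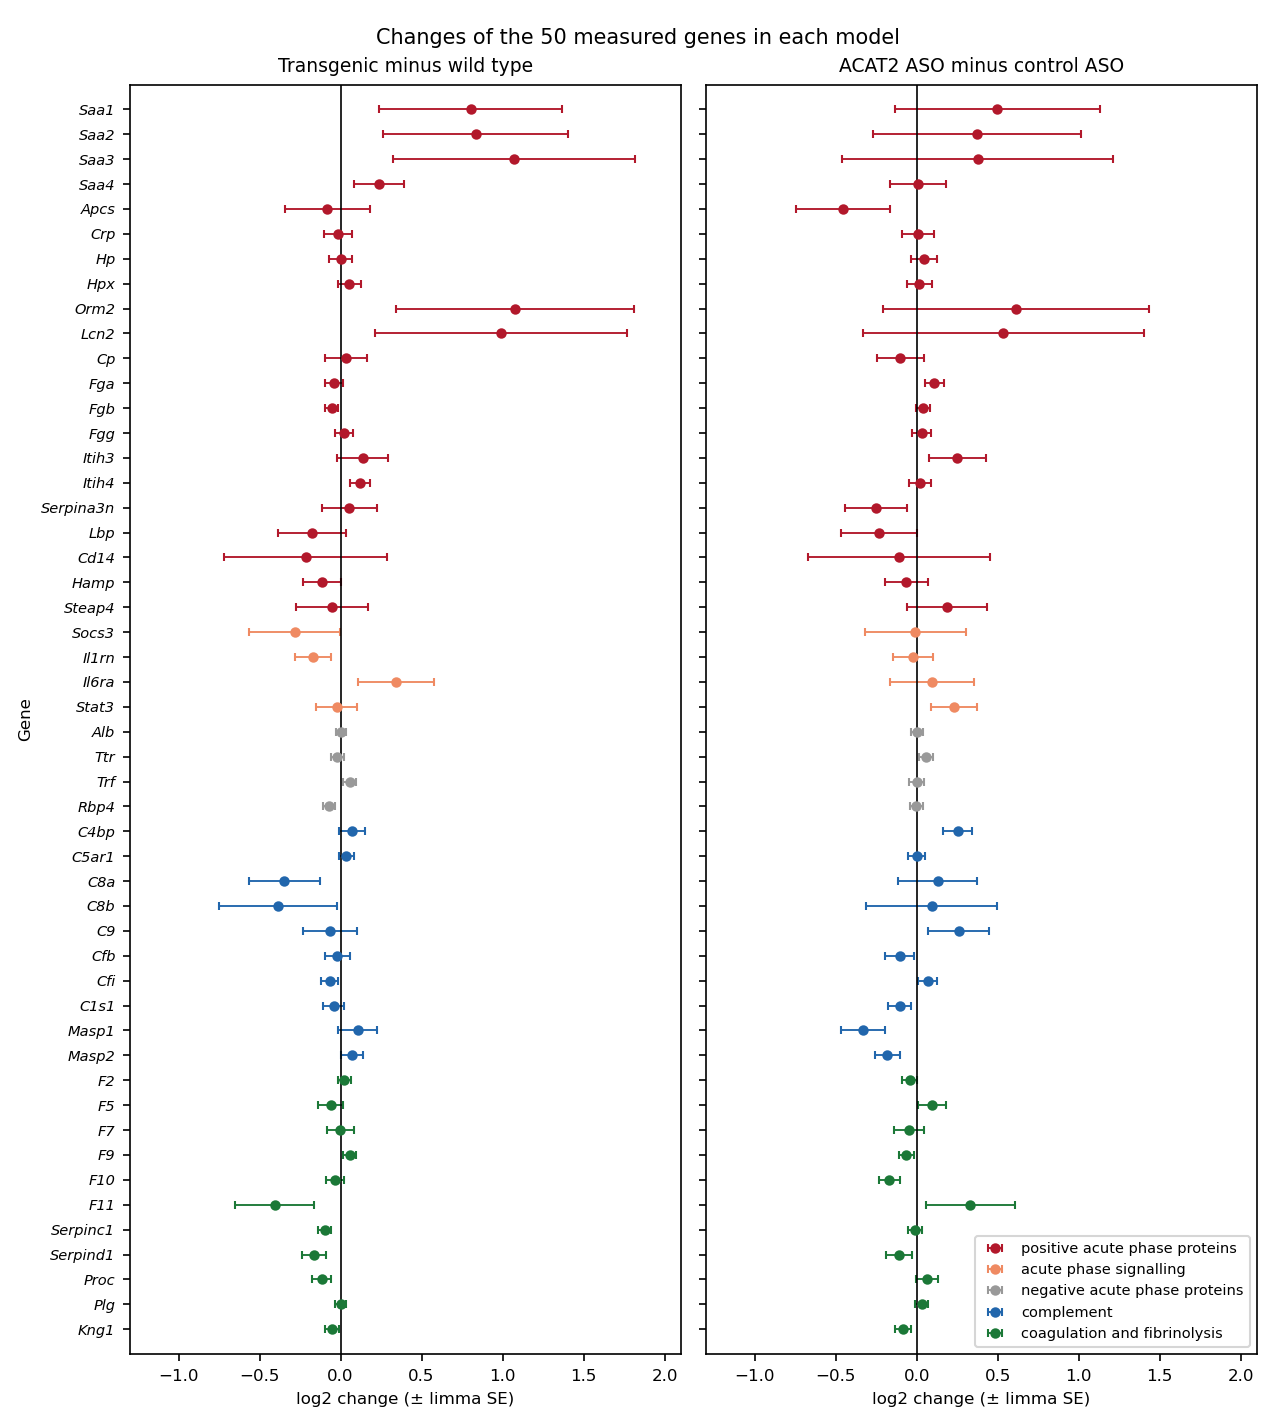
The log2 change of each of the 50 genes (points, coloured by role) with limma's standard error (bars), transgenic minus wild type on the left and ACAT2 ASO minus control ASO on the right. Changes above 0.5 in the transgenic comparison belong to Saa1, Saa2, Saa3, Orm2 and Lcn2, whose bars are also among the widest. None of the 50 genes was called in either comparison.

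Among positive acute phase genes, Lcn2, which encodes the siderophore-binding protein lipocalin 2, varied most. Transgenic arrays 1 to 5 read 9.56, 8.86, 9.38, 9.43 and 10.58 for Lcn2, and wild-type arrays 1 to 5 read 8.08, 11.20, 8.42, 8.56 and 6.61. The 4 wild-type arrays other than wild type 2 lay below all transgenic arrays, while wild type 2 lay above all of them, so the groups overlapped. The log2 change was 0.99 ± 0.78 (SE, limma adjusted p = 0.709). It was 0.50 without wild type 5, and 1.65 ± 0.41 without the 3 divergent arrays (limma adjusted p = 0.116). In that omission, here and for the genes below, only wild type 2 leaves the transgenic comparison. The spread is estimated over all groups, so leaving out the divergent ASO arrays also alters SE and p in this comparison. With wild type 2 alone left out the Lcn2 change was also 1.65, with limma adjusted p = 0.385. Transgenic 5, the highest array of its group, stays in, and the omission was chosen after the data were seen. ACAT2 ASO arrays 1 to 4 read 10.91, 8.56, 9.05 and 10.03, and control ASO arrays 1 to 4 read 8.77, 7.80, 8.08 and 11.75. Control ASO 4 was the highest of these 8 arrays, and the groups overlapped. The log2 change was 0.54 ± 0.87 (limma adjusted p = 0.863), and 1.00 ± 0.50 (SE) without the 3 divergent arrays (limma adjusted p = 0.502). With single arrays left out the ASO change ran from 0.10 (without control ASO 2) to 1.42 (without control ASO 4). The signal spanned 24.1-fold within the wild-type group and 15.5-fold within the control ASO group.

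Saa3, a serum amyloid A gene that is also expressed outside hepatocytes, followed the same arrays. Its values on transgenic arrays 1 to 5 were 9.70, 8.84, 10.23, 10.93 and 11.27, against 8.23, 11.33, 9.04, 9.03 and 7.98 on the wild-type arrays. Transgenic 2 read lower than wild type 3 and 4, and wild type 2 read highest, so the groups overlapped. The change was 1.07 ± 0.75 (limma adjusted p = 0.654), or 1.62 ± 0.40 without the 3 divergent arrays (limma adjusted p = 0.114). Of those arrays only wild type 2 is in this comparison, and with it alone left out the limma adjusted p was 0.395. In the ASO model Saa3 read 10.92, 8.86, 8.12 and 9.11 on ACAT2 ASO arrays and 8.12, 8.22, 7.74 and 11.42 on control ASO arrays. One array in each group stood well above the rest, ACAT2 ASO 1 and control ASO 4, and the groups overlapped. The change was 0.38 ± 0.83 (limma adjusted p = 0.902), it was 1.22 with control ASO 4 left out, and it was -0.18 with ACAT2 ASO 1 left out.

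Saa1 and Saa2 encode the main circulating serum amyloid A proteins of the mouse. Saa1 read 11.14, 10.31, 11.02, 11.46 and 11.73 on transgenic arrays, against 9.79, 12.01, 10.67, 10.21 and 8.97 on wild-type arrays. After ACAT2 ASO it read 12.24, 10.79, 10.18 and 11.44, against 10.43, 9.72, 9.98 and 12.54 after control ASO. The high arrays were again transgenic 5, wild type 2, ACAT2 ASO 1 and control ASO 4, and both pairs of groups overlapped. Saa1 differed by 0.80 ± 0.56 in the transgenic comparison (limma adjusted p = 0.660) and by 0.50 ± 0.63 in the ASO comparison (limma adjusted p = 0.809). Without the 3 divergent arrays these changes were 1.22 ± 0.34 (limma adjusted p = 0.154) and 0.76 ± 0.41 (limma adjusted p = 0.540). Of those arrays only wild type 2 is in the transgenic comparison, and with it alone left out the limma adjusted p was 0.395. With single arrays left out the Saa1 changes ran from 0.46 to 1.22 and from 0.14 to 1.12. Saa2 differed by 0.83 ± 0.57 (limma adjusted p = 0.650) and 0.37 ± 0.64 (limma adjusted p = 0.871). The transgenic change of Saa2 ran from 0.48 (without wild type 5) to 1.25 (without wild type 2), and its ASO change from -0.0060 (without ACAT2 ASO 1) to 1.02 (without control ASO 4). The name of the Saa2 probe set marks probes shared between transcripts, and Saa1 and Saa2 are near-identical genes, so these 2 readings are not separate measurements. Saa4, the constitutive member of the family, ranged from 10.50 to 10.80 in transgenic and 10.24 to 10.57 in wild-type liver, and differed by 0.24 ± 0.15 (limma adjusted p = 0.620).

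Orm2 encodes an orosomucoid, a plasma carrier of basic drugs and lipids. It read 8.67, 7.82, 9.77, 9.63 and 10.83 on transgenic arrays, against 7.29, 10.67, 8.44, 7.69 and 7.25 on wild-type arrays. Transgenic 5 was the highest of these 10 arrays and wild type 2 came next, and transgenic 2 lay among the lower wild-type arrays. The change was 1.08 ± 0.73 (limma adjusted p = 0.646), or 1.68 ± 0.46 without the 3 divergent arrays (limma adjusted p = 0.142). Of those arrays only wild type 2 is in this comparison, and transgenic 5 is kept. With wild type 2 alone left out the limma adjusted p was 0.360. In the ASO model Orm2 read 10.90, 8.71, 8.71 and 9.38 on ACAT2 ASO arrays and 8.53, 8.07, 7.70 and 10.94 on control ASO arrays, a change of 0.61 ± 0.82 (limma adjusted p = 0.825). Each of these groups held a single array above 10, and the groups overlapped. The ASO change of Orm2 was 0.12 without ACAT2 ASO 1 and 1.32 without control ASO 4. Orosomucoid genes are close relatives, so the Orm2 probe set may also read other family members.

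Cd14, the co-receptor that presents bacterial lipopolysaccharide to TLR4 and a gene of macrophages as well as hepatocytes, lay lower on the scale. Transgenic arrays read 5.65, 5.23, 5.88, 6.17 and 6.20, against 5.16, 7.86, 6.01, 5.80 and 5.38 on wild-type arrays. ACAT2 ASO arrays read 6.92, 5.94, 5.35 and 6.02, against 5.59, 5.61, 5.50 and 7.95 on control ASO arrays. Wild type 2 and control ASO 4 stood more than 1 log2 unit above every other array of their groups, and both pairs of groups overlapped. The changes were -0.21 ± 0.50 (limma adjusted p = 0.930) and -0.11 ± 0.56 (limma adjusted p = 0.963), and without the 3 divergent arrays they were 0.24 and 0.20.

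**Figure D2:**
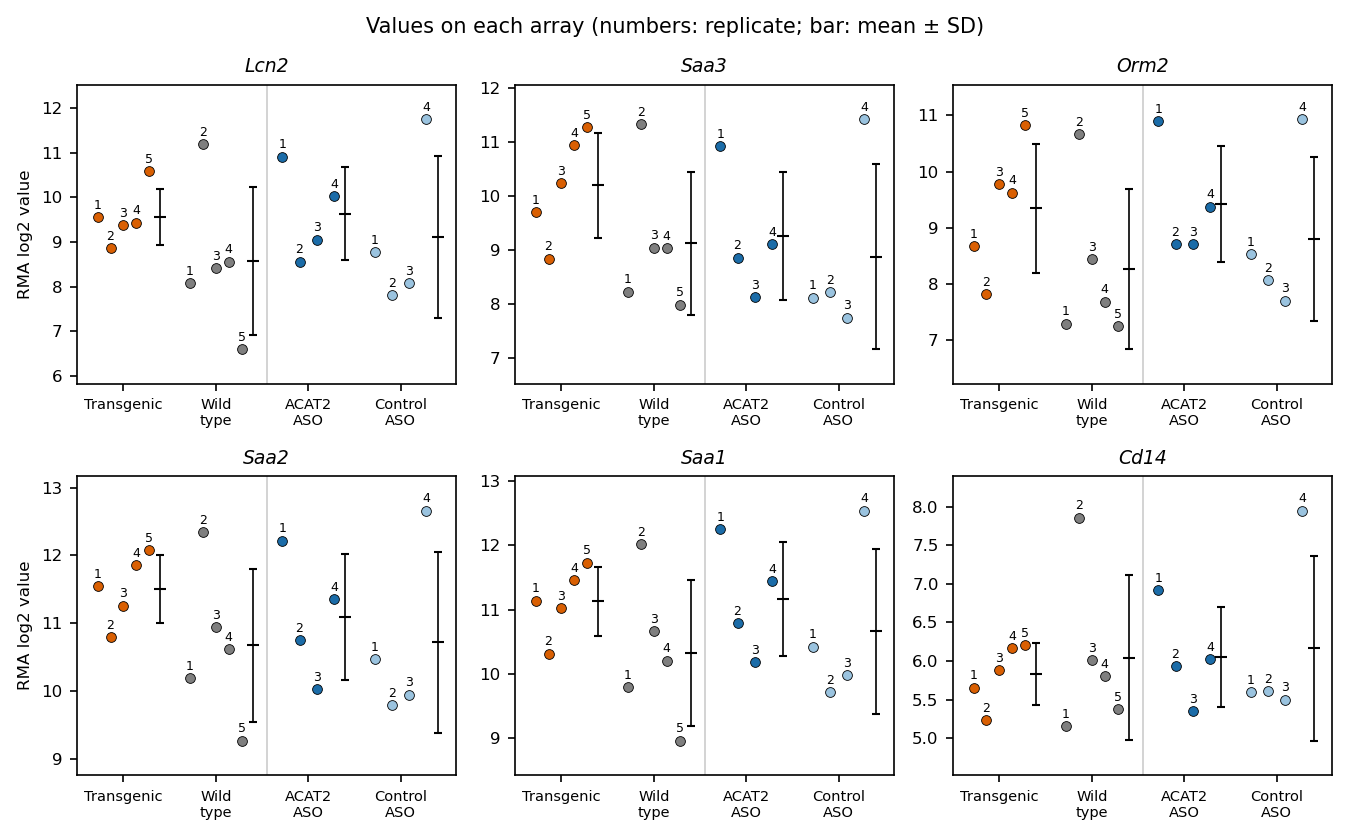
RMA log2 values of Lcn2, Saa3, Orm2, Saa2, Saa1 and Cd14 on each of the 18 arrays (points, with the replicate number above each), with group mean ± SD (bars). Wild type 2 (11.20 for Lcn2) and control ASO 4 (11.75 for Lcn2) stand above the other arrays of their groups in all 6 genes, and in each of the 6 genes ACAT2 ASO 1 and transgenic 5 are the highest of theirs.

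The promoters of the 5 genes with the widest spread are shown because they share a short motif. Cd14, the next in spread, had no promoter among the sequences used here, so it was not searched. Sequences are from RefSeq (GRCm38.p6) and run over the 250 bases before the annotated start, 5′ to 3′ on the gene's strand. They lie at chr2:32387740-32387989 (minus strand) for Lcn2, chr7:46715677-46715926 (minus) for Saa3, chr4:63362199-63362448 (plus) for Orm2, chr7:46751583-46751832 (plus) for Saa2 and chr7:46742981-46743230 (minus) for Saa1. Capitals mark the letters TTGCNNAA or, in Saa3, their reverse complement, a form of the C/EBP binding motif.
Lcn2: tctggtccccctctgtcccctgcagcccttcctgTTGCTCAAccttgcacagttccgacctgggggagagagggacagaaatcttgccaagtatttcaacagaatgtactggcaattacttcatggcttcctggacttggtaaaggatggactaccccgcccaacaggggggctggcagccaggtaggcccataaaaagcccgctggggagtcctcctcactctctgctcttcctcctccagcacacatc
Saa3: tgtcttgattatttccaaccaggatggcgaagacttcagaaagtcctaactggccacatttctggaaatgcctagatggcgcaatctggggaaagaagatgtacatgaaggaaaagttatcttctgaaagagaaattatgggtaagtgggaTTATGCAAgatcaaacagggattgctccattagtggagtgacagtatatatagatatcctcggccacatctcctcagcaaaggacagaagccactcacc
Orm2: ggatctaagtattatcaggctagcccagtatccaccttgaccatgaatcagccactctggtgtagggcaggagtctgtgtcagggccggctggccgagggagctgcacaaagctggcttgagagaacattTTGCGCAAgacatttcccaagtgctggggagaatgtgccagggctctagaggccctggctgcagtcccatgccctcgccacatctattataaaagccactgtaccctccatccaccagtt
Saa2: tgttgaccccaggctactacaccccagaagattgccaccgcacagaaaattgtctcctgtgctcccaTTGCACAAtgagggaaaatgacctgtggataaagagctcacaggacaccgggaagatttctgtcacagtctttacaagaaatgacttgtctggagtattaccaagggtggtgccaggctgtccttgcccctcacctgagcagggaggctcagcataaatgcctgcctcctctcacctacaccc
Saa1: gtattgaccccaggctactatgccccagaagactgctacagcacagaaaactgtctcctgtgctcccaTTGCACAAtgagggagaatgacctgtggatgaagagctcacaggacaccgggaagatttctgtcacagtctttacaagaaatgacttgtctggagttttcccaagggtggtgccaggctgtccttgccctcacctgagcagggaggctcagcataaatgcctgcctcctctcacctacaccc

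The Saa1 and Saa2 stretches matched at 238 of 251 aligned positions (94.8%), and every other pair of the 5 at 49.3% to 54.3%. A RefSeq promoter of 300 bases, 250 before and 50 after the start, was found for 39 of the 50 genes. TTGCNNAA, searched on both strands, occurred in 18 of these 39 (46.2%) and in 10.8% of all 32851 promoter windows. Here and for the motifs below, a member gene was counted if any of its windows matched. The share over all promoters was counted window by window, so it is not in the same unit as the members' share. The 18 included Saa4, Steap4, Cp, Hpx, Fga and Fgb, and also negative acute phase genes (Alb, Rbp4) and clotting genes (F9, F11, Serpinc1), so matches were also found in genes with a narrow spread. The STAT palindrome TTCNNNGAA occurred in 10 of 39 (25.6%, against 8.3% of all windows), none of them among the 5 printed genes. An NF-kB motif occurred in 3 of 39 (7.69%, against 1.63%), namely Il1rn, Serpina3n and Steap4, and TATAAA in 8 of 39 (20.5%, against 13.6%). Matches of the C/EBP and STAT letters may overlap where the bases allow. The motifs were chosen after the values were seen, a match is not evidence of binding, and no test was made of these shares.

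The spread between arrays of a group differed widely among the members. It was measured as the pooled within-group standard deviation (SD), with 14 residual degrees of freedom, whose median over all genes was 0.11. Of the 50 genes, 18 lay above the 90th percentile of all genes and 6 above the 99th, among the 18 being 12 of the 21 positive acute phase genes. Lcn2 (SD 1.36), Saa3 (1.30) and Orm2 (1.28) ranked 12, 14 and 16 of 17097, followed by Saa2 (1.00), Saa1 (0.98) and Cd14 (0.88). At the other end were Alb (SD 0.03), Plg (0.04), Rbp4 (0.04), Serpinc1 (0.05), Ttr (0.05) and Fgb (0.05), of which all but Serpinc1 are among the genes near the top of the scale. Median SD was 0.27 for positive acute phase genes, 0.31 for signalling genes, 0.13 for complement, 0.08 for coagulation and 0.04 for negative acute phase genes. The ranges overlapped for positive acute phase (0.05 to 1.36), signalling (0.18 to 0.49), complement (0.07 to 0.63) and coagulation genes (0.04 to 0.43). Negative acute phase genes (0.03 to 0.05) lay wholly below signalling and complement genes. Without the 3 divergent arrays 17 genes lay above the 90th percentile, and Orm2 (SD 0.79), Lcn2 (0.71), Saa3 (0.70), Saa1 (0.58) and Saa2 (0.58) stayed above the 99th.

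**Figure D3:**
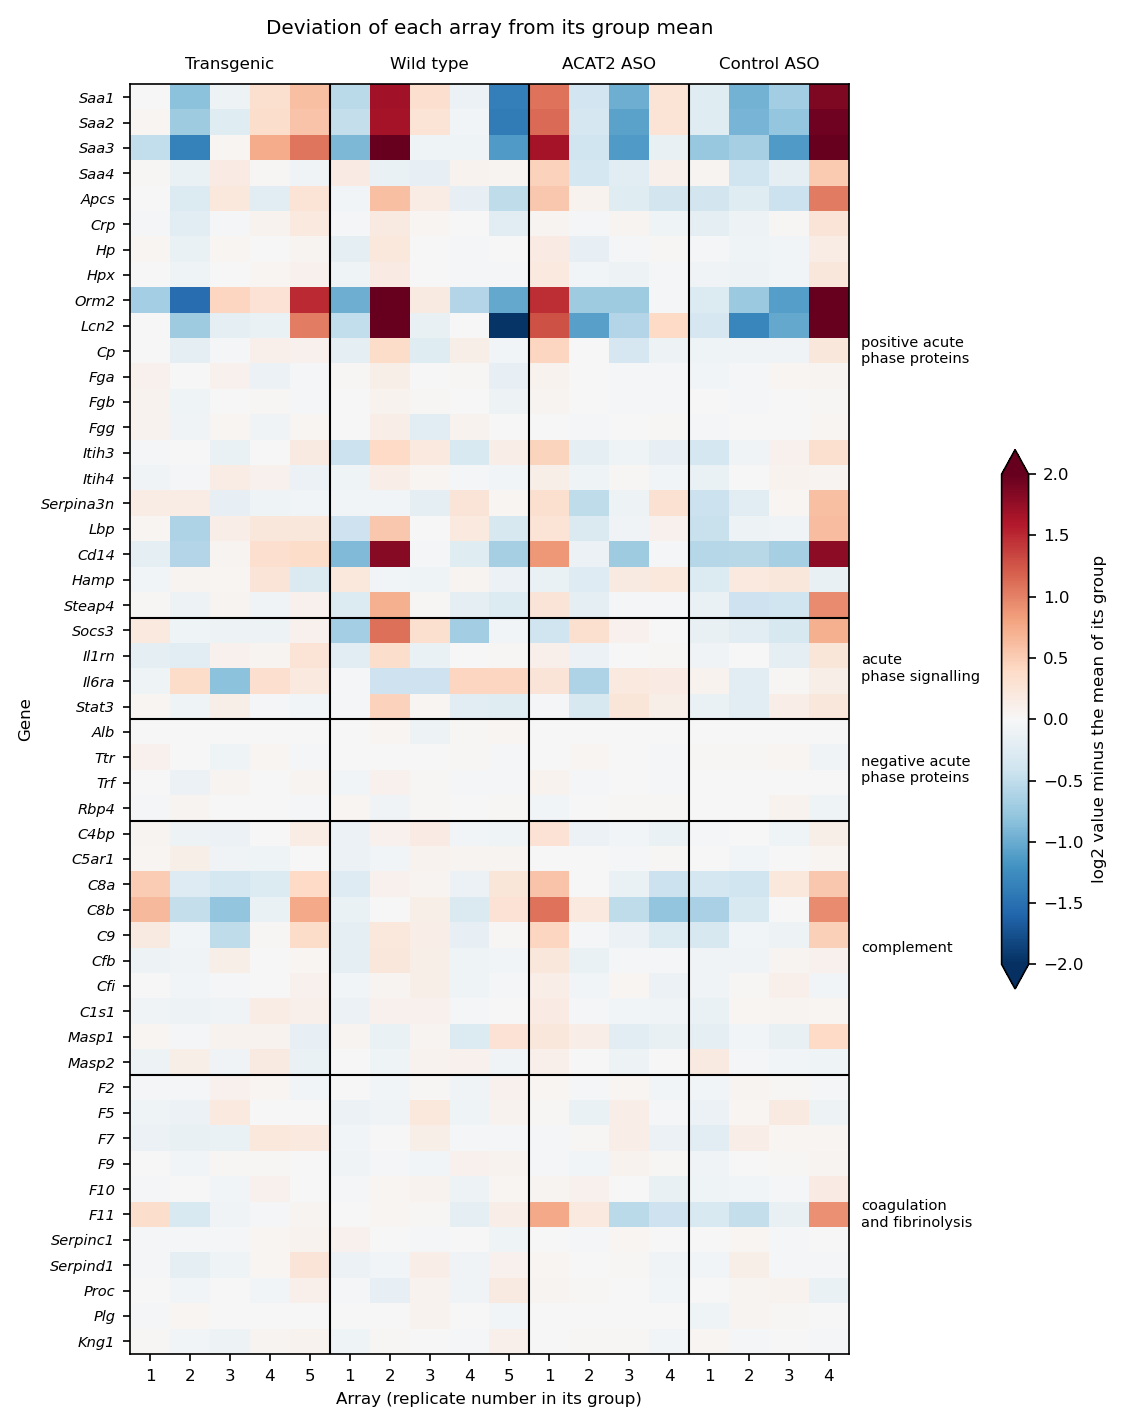
Deviation of each array from its group's mean (colour, log2 units, cut at 2 in either direction) for the 50 genes (rows, by role) on 18 arrays (columns, by group and replicate number). Columns wild type 2, ACAT2 ASO 1 and control ASO 4 are red across most positive acute phase genes, while the rows of Alb, Ttr, Trf and Rbp4 are nearly white.

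Positive acute phase genes were highest on the same arrays. Of the 21, 18 were highest of their group on wild type 2, 12 on transgenic 5, 19 on ACAT2 ASO 1 and 19 on control ASO 4. Over all genes these arrays were highest of their group for 21.8%, 19.7%, 27.4% and 27.1%. The mean over the 21 genes was 11.23 on transgenic 5, against 10.60 to 11.06 on the other transgenic arrays, and 11.48 on wild type 2, against 10.29 to 10.74 on the other wild-type arrays. It was 11.36 on ACAT2 ASO 1, against 10.55 to 10.87 on the rest of that group, and 11.60 on control ASO 4, against 10.43 to 10.52 on the other control arrays. Each model thus had an array of the treated or transgenic group and an array of its control group at the high end.

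Kupffer cell and macrophage markers moved with them. All 8 listed markers (Adgre1, Clec4f, Cd68, Csf1r, Marco, Vsig4, Timd4 and Cd5l) were measured, Timd4 being the dimmest (3.84 to 7.53). Their mean ranged from 7.76 to 8.55 in transgenic liver, highest on transgenic 5, and from 7.60 to 9.44 in wild-type liver, highest on wild type 2. It ranged from 7.20 to 9.09 after ACAT2 ASO, highest on ACAT2 ASO 1, and from 7.24 to 8.66 after control ASO, highest on control ASO 4. Marco, a scavenger receptor of macrophages, read 10.30 on wild type 2 and 5.90 to 8.06 on the other wild-type arrays. All 8 markers were highest of their group on ACAT2 ASO 1 and all 8 on control ASO 4, 7 on wild type 2 and 5 on transgenic 5. Lymphocyte markers (7 measured) were also highest of their groups on these arrays, with means of 5.64 on transgenic 5, 5.79 on wild type 2, 5.15 on ACAT2 ASO 1 and 5.19 on control ASO 4. So were platelet and megakaryocyte marker means (5 measured), at 5.21, 5.13, 4.78 and 4.71 on those 4 arrays, control ASO 2 reading 4.70. Of the 7 lymphocyte genes 4, 6, 6 and 4 were themselves highest there, and of the 5 platelet genes 2, 2, 3 and 2. Stellate cell and matrix marker means (6 measured) were highest on transgenic 5, wild type 3, ACAT2 ASO 1 and control ASO 2. Cholangiocyte marker means (4 measured) were highest on transgenic 5, wild type 3, ACAT2 ASO 4 and control ASO 2. Sinusoidal endothelial markers (6 measured) were highest of their groups on transgenic 5 (8.31), ACAT2 ASO 1 (7.99) and control ASO 4 (7.93), and in wild-type liver on wild type 4 (8.24). Neutrophil markers (7 of 8 measured) had means of 4.80 to 5.09 in transgenic and 4.74 to 5.44 in wild-type liver, highest on transgenic 5 and wild type 2. After ACAT2 ASO and control ASO the neutrophil means were 4.76 to 5.28 and 4.73 to 5.29, highest on replicate 4 of each group. Of the 7 neutrophil genes 1, 3, 5 and 2 were themselves highest on transgenic 5, wild type 2, ACAT2 ASO 4 and control ASO 4. On control ASO 4 those were S100a8 (5.95) and S100a9 (7.34), while Mpo (3.91) and Ltf (4.88) were the lowest of that group. In whole liver, fewer cells of a type and less RNA per cell cannot be told apart, and the part of these cells in the acute phase values was not tested.

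**Figure D4:**
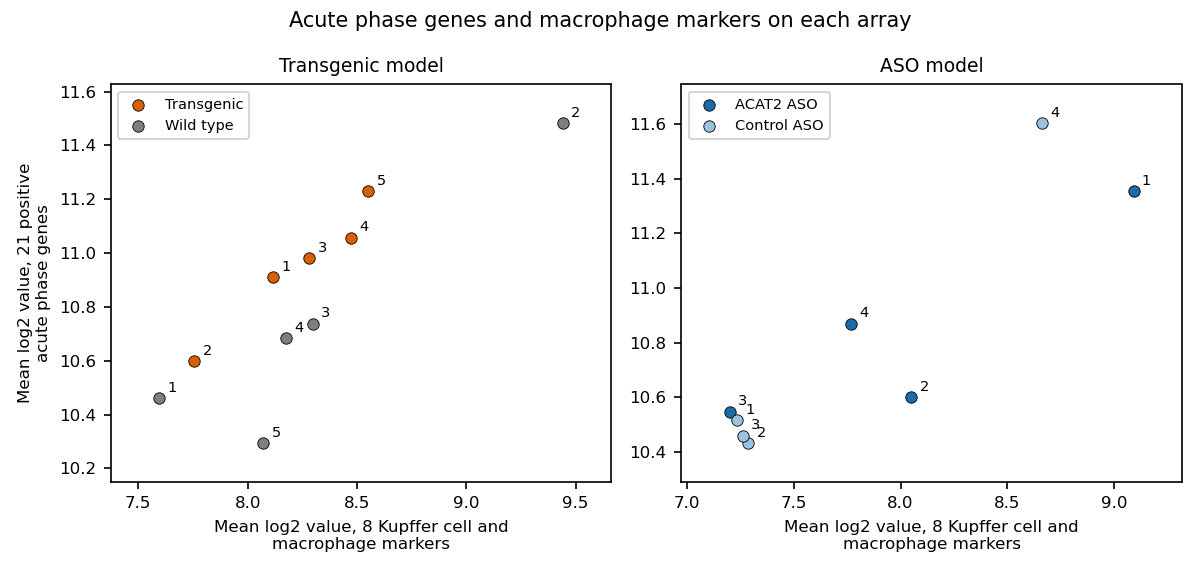
Mean log2 value of the 21 positive acute phase genes (vertical axis) against the mean of 8 Kupffer cell and macrophage markers (horizontal axis) on each array, with replicate numbers, for the transgenic model (left) and the ASO model (right). Wild type 2 lies at 9.44 and 11.48, and ACAT2 ASO 1 (9.09 and 11.36) and control ASO 4 (8.66 and 11.60) lie apart from the other arrays of their model.

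None of the remaining positive acute phase genes was called in either comparison. Between transgenic and wild-type liver, 13 of the 21 were above 0 and 8 below, with a median of 0.03, and the lowest adjusted p belonged to Itih4, an inter-alpha-trypsin inhibitor heavy chain gene (0.12 ± 0.06, limma adjusted p = 0.495). Haptoglobin (Hp), which binds free haemoglobin, read 12.62 to 12.80 in transgenic and 12.56 to 12.95 in wild-type liver. Haemopexin (Hpx), the haem scavenger, had means of 13.08 ± 0.06 on transgenic arrays and 13.03 ± 0.10 on wild-type arrays (SD, n = 5 each). The fibrinogen chain genes Fga, Fgb and Fgg, which RefSeq places side by side on chromosome 3, differed by -0.04, -0.05 and 0.02. The groups overlapped for each of these 5 genes.

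After ACAT2 ASO, 15 of the 21 were above control and 6 below, with a median of 0.03. The mean changes of all 8 Kupffer cell and macrophage markers were also above 0, with a median of 0.44, as were those of 6 of 7 neutrophil markers. Of these markers 0 were called (lowest limma adjusted p = 0.313 and 0.241). The array means overlapped, at 7.20 to 9.09 against 7.24 to 8.66 in control for Kupffer cell markers. For neutrophil markers they were 4.76 to 5.28 against 4.73 to 5.29. The part of these markers in the acute phase changes was not tested. Fga, the fibrinogen alpha chain gene, read 12.47, 12.40, 12.37 and 12.37 after ACAT2 ASO, against 12.24, 12.25, 12.33 and 12.35 after control ASO. All ACAT2 ASO values lay above all control values, and the change was 0.11 ± 0.06 (limma adjusted p = 0.459). Such complete separation occurred in 4 of the 50 members, against 9.05% of all genes, and in 0 of 50 in the transgenic comparison, against 2.22% of all genes. Apcs, the gene of serum amyloid P component, a pentraxin that is a major acute phase protein of the mouse, read 10.24, 9.76, 9.46 and 9.32 after ACAT2 ASO, against 9.79, 9.91, 9.72 and 11.19 after control ASO. Its change of -0.46 ± 0.29 (limma adjusted p = 0.544) was -0.11 without control ASO 4, the array that stood highest. Crp, the neighbouring pentraxin gene on chromosome 1, differed by 0.01 ± 0.10 and varied little (SD 0.15).

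Steap4, a metalloreductase gene that responds to inflammatory cytokines, read 10.27, 9.82, 9.99 and 9.98 on ACAT2 ASO arrays, against 9.69, 9.42, 9.43 and 10.77 on control ASO arrays. Control ASO 4 was above all ACAT2 ASO arrays and the other 3 controls were below all of them. The change was 0.18 ± 0.25 (limma adjusted p = 0.825), and without the 3 divergent arrays 0.41 ± 0.09 (limma adjusted p = 0.087). Hamp, the gene of the iron hormone hepcidin, differed by -0.07 ± 0.13 in the ASO comparison and by -0.11 ± 0.12 in the transgenic comparison. Wild type 2 (12.29) and control ASO 4 (12.02) lay within the range of the other arrays of those groups (12.23 to 12.56 and 11.89 to 12.38), unlike for the serum amyloid A genes. Lbp, the lipopolysaccharide-binding protein gene, differed by -0.17 ± 0.21 and -0.23 ± 0.23 (limma adjusted p = 0.834 and 0.741), in transgenic and ACAT2 ASO liver. Transgenic 2 (8.39) had the lowest Lbp reading of the transgenic model, and control ASO 4 (10.21) the highest of the ASO model.

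The 4 signalling genes gave 0 calls as well. Socs3, the STAT3-induced feedback inhibitor of interleukin-6 signalling, read 5.39, 5.11, 5.10, 5.10 and 5.29 in transgenic liver, against 4.80, 6.58, 5.80, 4.78 and 5.42 in wild-type liver. The wild-type values lay on both sides of the transgenic ones, with wild type 2 highest (change -0.28 ± 0.28, limma adjusted p = 0.790). Without wild type 2 the change was -0.0064. Il1rn, the interleukin-1 receptor antagonist gene, differed by -0.17 ± 0.11 (limma adjusted p = 0.616), and Il6ra, the interleukin-6 receptor alpha chain gene, by 0.34 ± 0.23 (limma adjusted p = 0.644). For Il6ra transgenic 3 (7.19) was the lowest of the 10 arrays of that model, and wild type 2 (7.24) the lowest of its group, while ACAT2 ASO 1 (8.63) and control ASO 4 (8.40) were the highest of theirs. After ACAT2 ASO, Stat3 differed by 0.23 ± 0.14 (limma adjusted p = 0.526), Il6ra by 0.09 ± 0.26, Il1rn by -0.02 ± 0.12 and Socs3 by -0.01 ± 0.31. Il6ra and Stat3 each had another probe set with lower signal. The other Il6ra probe set differed by 0.02 in the transgenic comparison, and the other Stat3 probe set by 0.01 in the ASO comparison.

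Negative acute phase genes were the steadiest group. Alb (albumin) ranged from 13.57 to 13.58 in transgenic liver, from 13.47 to 13.61 in wild-type liver, and from 13.56 to 13.59 over both ASO groups. Rbp4, the plasma retinol carrier gene, ranged from 12.88 to 12.96 in transgenic liver, against 12.91 to 13.01 in wild-type liver. Wild type 2 (12.91) was the one wild-type array within the transgenic range, and the change was -0.07 ± 0.04 (limma adjusted p = 0.530). Trf (transferrin) differed by 0.06 ± 0.04 and Ttr (transthyretin, the thyroxine carrier) by -0.02 ± 0.04 in that comparison, and by 0.00066 and 0.06 ± 0.04 after ACAT2 ASO. All 4 sat within 1 log2 unit of the array maximum.

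Complement genes gave 0 calls of 10, with medians of -0.03 in the transgenic comparison and 0.03 in the ASO comparison. C4bp, the gene of C4b-binding protein, which restrains the classical pathway, had the lowest adjusted p of all members after ACAT2 ASO. It read 11.26, 10.86, 10.93 and 10.85 after ACAT2 ASO, against 10.69, 10.71, 10.64 and 10.84 after control ASO. The groups just failed to touch, with ACAT2 ASO 1 and control ASO 4 the highest of each. The change was 0.25 ± 0.09 (limma adjusted p = 0.213), or 0.20 ± 0.08 without the 3 divergent arrays (limma adjusted p = 0.384). Leaving out single arrays gave changes between 0.16 and 0.30. In transgenic liver C4bp differed by 0.07 ± 0.08 (limma adjusted p = 0.821).

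Masp1 and Masp2 encode serine proteases of the lectin pathway. Masp1 read 9.30, 9.20, 8.85 and 8.93 after ACAT2 ASO, against 9.21, 9.34, 9.25 and 9.81 after control ASO. The groups overlapped and control ASO 4 was the highest, and the change was -0.33 ± 0.13 (limma adjusted p = 0.292), or -0.20 without control ASO 4. The 4 other probe sets of Masp1, all with lower signal, differed by 0.15, 0.03, -0.02 and 0.02, so the reading depends on the probe set. Masp2 read 8.78, 8.69, 8.59 and 8.67 after ACAT2 ASO, against 9.04, 8.82, 8.81 and 8.78 after control ASO. Its change was -0.18 ± 0.08 (limma adjusted p = 0.305), with control ASO 1 the highest array, and the other Masp2 probe set differed by -0.25. Both genes were slightly above wild type in transgenic liver (0.11 ± 0.12 and 0.07 ± 0.07), and the differences between the 2 effects had limma adjusted p = 0.250 for Masp1 and 0.241 for Masp2.

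Genes of the terminal pathway, whose products build the membrane attack complex, also differed between arrays of a group. C8b, the C8 beta chain gene, read 9.17, 8.04, 7.74, 8.38 and 9.28 in transgenic liver, against 8.77, 8.92, 9.03, 8.61 and 9.21 in wild-type liver. Transgenic 1 and 5 were within or just above the wild-type range and the other 3 below all wild-type arrays (change -0.39 ± 0.36, limma adjusted p = 0.776). After ACAT2 ASO C8b read 9.38, 8.48, 7.78 and 7.51, against 7.55, 7.89, 8.21 and 9.15 after control ASO (change 0.09 ± 0.41, limma adjusted p = 0.954). C8a, the alpha chain gene next to C8b on chromosome 4, read 11.07, 10.31, 10.21, 10.29 and 10.96 in transgenic liver and between 10.65 and 11.16 in wild-type liver. Transgenic 1 and 5 were again the high arrays of their group (change -0.35 ± 0.22, limma adjusted p = 0.608). C9, the pore-forming component, was also highest on transgenic 5 (11.90) and transgenic 1 (11.70), on ACAT2 ASO 1 (11.62) and on control ASO 4 (11.40). Wild type 2, the extreme array for serum amyloid A, was within the range of the other wild-type arrays for both C8a and C8b (8.92 for C8b), and the highest of its group for C9 (11.80).

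F11, the clotting factor XI gene, had the same high arrays as C8b. It read 8.98, 8.33, 8.56, 8.60 and 8.69 in transgenic liver, against 9.04, 9.08, 9.07, 8.85 and 9.18 in wild-type liver. Only transgenic 1 reached the wild-type range (change -0.41 ± 0.25, limma adjusted p = 0.588). After ACAT2 ASO it read 8.95, 8.38, 7.64 and 7.78, against 7.56, 7.39, 7.71 and 8.77 after control ASO (change 0.33 ± 0.27, limma adjusted p = 0.668). ACAT2 ASO 1 and control ASO 4 were the high arrays, and the ASO change of F11 was 0.08 without ACAT2 ASO 1 and 0.64 without control ASO 4. The difference between the 2 effects, 0.74 ± 0.37, had limma adjusted p = 0.353 with all arrays and 0.138 without the 3 divergent arrays. These 4 genes were grouped after their values were seen, and no test was made of the group.

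**Figure D5:**
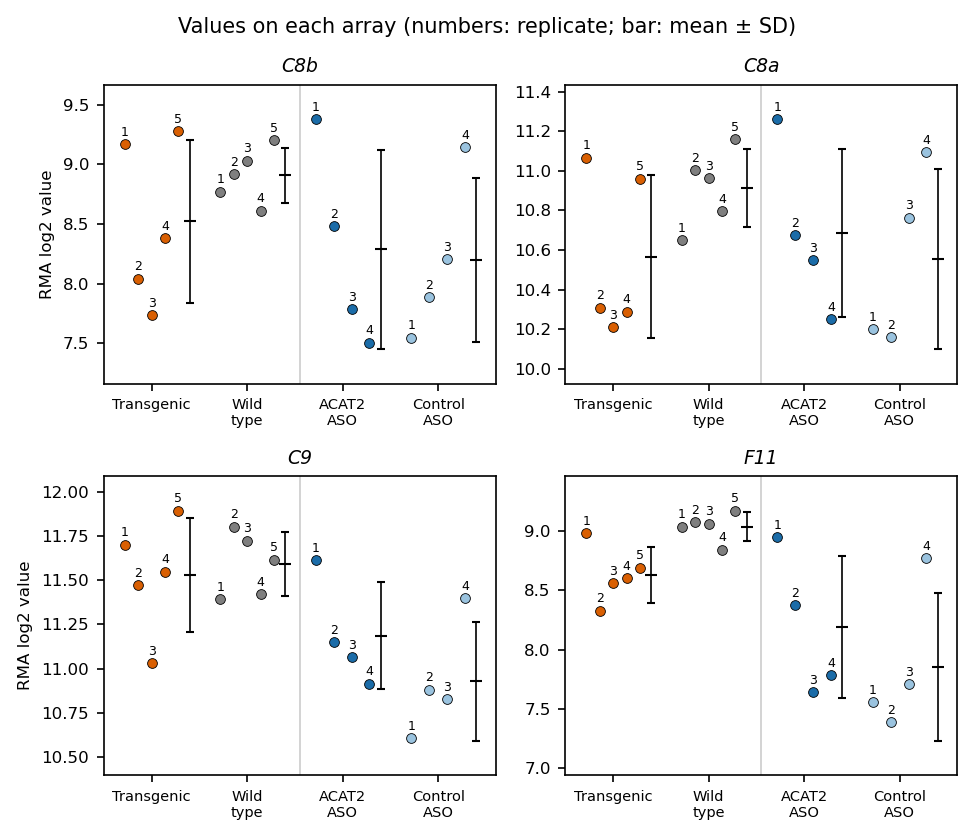
RMA log2 values of C8b, C8a, C9 and F11 on each array (points, with the replicate number above each), with group mean ± SD (bars). ACAT2 ASO 1 and control ASO 4 are the highest arrays of their groups in all 4 genes, for C8b at 9.38 and 9.15, and transgenic 1 and 5 are the high arrays of theirs.

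None of the other complement members was called. Cfb and Cfi, the genes of factor B and factor I of the alternative pathway, differed by -0.02 ± 0.08 and -0.07 ± 0.05 in transgenic liver and by -0.11 ± 0.09 and 0.07 ± 0.06 after ACAT2 ASO. C1s1, a C1s protease gene, differed by -0.04 ± 0.06 and -0.10 ± 0.07 in transgenic and ACAT2 ASO liver. C5ar1, the receptor for the C5a peptide and a gene of myeloid cells, was among the dimmest members (3.99 to 4.35).

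Coagulation and fibrinolysis genes gave 0 calls of 11, with medians of -0.05 in the transgenic comparison and -0.04 in the ASO comparison. Serpinc1 encodes antithrombin, the main inhibitor of thrombin and factor Xa. It read 12.45, 12.47, 12.45, 12.53 and 12.57 in transgenic liver, against 12.68, 12.60, 12.55, 12.60 and 12.51 in wild-type liver. Wild type 5 and transgenic 5 made the groups overlap, and the change was -0.10 ± 0.04 (limma adjusted p = 0.349), the lowest adjusted p of any member in that comparison. Serpind1, the gene of heparin cofactor II, another thrombin inhibitor, read 9.99, 9.83, 9.94, 10.07 and 10.29, against 10.07, 10.14, 10.33, 10.12 and 10.28 in wild-type liver. Transgenic 5 alone lay well inside the wild-type range (change -0.16 ± 0.07, limma adjusted p = 0.422). Proc, the gene of the anticoagulant protein C, differed by -0.12 ± 0.06 (limma adjusted p = 0.503).

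After ACAT2 ASO, F10, the clotting factor X gene, read 10.33, 10.37, 10.28 and 10.13, against 10.36, 10.40, 10.41 and 10.61 after control ASO. ACAT2 ASO 2 overlapped control ASO 1, and the change was -0.17 ± 0.06 (limma adjusted p = 0.237). The 2 other F10 probe sets differed by -0.36 and -0.20, and the first reached limma adjusted p = 0.098 when every probe set was tested. Kng1, the kininogen 1 gene, read 12.34, 12.36, 12.35 and 12.28, against 12.45, 12.40, 12.42 and 12.40 after control ASO, with no overlap (change -0.08 ± 0.05, limma adjusted p = 0.488). Serpind1 ranged from 10.85 to 10.96, against 10.98 to 11.16 after control ASO, also with no overlap (change -0.11 ± 0.08, limma adjusted p = 0.626). F9 (factor IX) differed by -0.07 ± 0.05, while F2 (prothrombin), F5 (factor V), F7 (factor VII) and Plg (plasminogen) differed by -0.04, 0.10, -0.05 and 0.03. In transgenic liver F2, F5, F7, F9 and Plg differed by 0.02, -0.06, -0.00057, 0.06 and 0.00011.

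Other genes of these pathways came from wider lists. Of 23 further acute phase genes measured 0 were called in either comparison, and of 20 further coagulation genes 0 were called. The lowest adjusted p among them in the transgenic comparison belonged to Agt, the angiotensinogen gene, which read 10.61, 10.50, 10.75, 11.05 and 10.66 in transgenic liver, against 10.21, 9.96, 10.31, 10.31 and 10.37 in wild-type liver. The groups did not overlap, and the change was 0.48 ± 0.12 (limma adjusted p = 0.114). Il1r1, the interleukin-1 receptor gene, differed by 0.54 ± 0.23 in transgenic liver (limma adjusted p = 0.403) and by 0.70 ± 0.26 after ACAT2 ASO (limma adjusted p = 0.234). The ASO change of Il1r1 was 1.03 with limma adjusted p = 0.012 when ACAT2 ASO 2, the low array of its group, was left out. Itih2, an inter-alpha-trypsin inhibitor heavy chain gene, differed by -0.26 ± 0.08 after ACAT2 ASO (limma adjusted p = 0.151). Its groups all but touched, at 11.0888 on ACAT2 ASO 1 and 11.0889 on control ASO 1. Itih2 passed only with array weights (-0.34, limma adjusted p = 0.028).

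Of 21 further complement genes measured, 1 was called. C8g, the gene of the C8 gamma chain, a lipocalin bound to the alpha chain, read 10.65, 10.95, 10.53 and 10.65 after ACAT2 ASO, against 11.08, 11.08, 10.95 and 11.18 after control ASO. It fell by 0.38 ± 0.08 on the log2 scale (limma adjusted p = 0.034), and ACAT2 ASO 2 lay level with control ASO 3, so the groups touched. In transgenic liver it read 11.68, 11.76, 11.77, 11.83 and 11.67, against 11.61, 11.37, 11.49, 11.51 and 11.60 in wild-type liver, with no overlap (change 0.23 ± 0.07, limma adjusted p = 0.212). The difference between the 2 effects was -0.61 ± 0.11 (limma adjusted p = 0.011). Without the 3 divergent arrays neither value passed: the ASO change was -0.33 (limma adjusted p = 0.149) and the difference of effects -0.52 (limma adjusted p = 0.072). The ASO call was also lost with the replicate block (limma adjusted p = 0.127), in a fit of its own 8 arrays (limma adjusted p = 0.162), with quantile normalization (limma adjusted p = 0.058) and in 6 of the 8 single-array omissions. The difference of effects was lost with the replicate block as well (limma adjusted p = 0.084). Neither C8a nor C8b, the genes of its partner chains, was called, and their ASO changes were 0.13 and 0.09. These were -0.06 and -0.27 without ACAT2 ASO 1, and 0.31 and 0.41 without control ASO 4.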

How the data were processed

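Hepatic total RNA (250 ng) was labelled by the Affymetrix 3′-IVT method, per the labels' protocols, and hybridised to MG-430 PM arrays. The authors deposited log2 values summarised per probe set by RMA, as the submitters' processing notes name it, and its version is not given in the sources used here. Each array held 45141 probe sets. After 104 controls were left out, 28898 probe sets had 1 symbol in the platform annotation, 551 had several and 15588 had none, and each gene was read from its highest-mean single-symbol probe set (17097 genes). No pair of arrays was identical (0 pairs). The arrays' median signal was 4.61 to 4.65 in the transgenic model and 4.38 to 4.40 in the ASO model, so levels were compared only within a model. The number of arrays limits precision.

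Groups came from the sample titles. A mean per group was fitted over all 18 arrays with limma 3.58.1 (R 4.3.3, lmFit and eBayes, two-sided, Benjamini-Hochberg over all genes, adjusted p under 0.05), and no filter on low values was used. Same-numbered arrays correlated between -0.48 and 0.47 in their deviations, so replicate numbers were not taken as pairs. The members, role groups, wider lists and tests were chosen with earlier results of these data known. Full statistics were given for up to 3 members per role group and comparison with the smallest p, for the members of widest spread (chosen after values were seen), and for up to 3 genes per wider list. In the simulated data of each comparison 200 genes were changed. In the transgenic comparison the fit recovered 58 of 67 changed by 0.5, 62 of 67 by 1 and 66 of 66 by 2. In the ASO comparison it recovered 61 of 67, 65 of 67 and 65 of 66. Of 16897 unchanged genes, 10 and 9 were called. The changed genes were drawn at random from all genes, with noise independent between genes. The median SD over all genes was 0.11, against 1.36 for Lcn2, so these shares do not carry over to members of wide spread. Promoters were matched by symbol and aligned with Biopython 1.88, and figures were drawn with matplotlib 3.10.9. Alternatives covered filtering, scaling, probe set choice, the arrays fitted, variance, array weights, the replicate block, thresholds and leaving out arrays. The transcript targeted by the ASO and 3 listed genes were left out as not analysed here.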

Additional observations from a re-analysis of the deposited data

Results flagged for a closer look

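Of 200 sets of values (50 genes in 4 groups), 19 held an array set apart by a gap that was large for its group's range. A rate of 1 in 20 would give 10, but it presumes independent genes, and many members were high on the same arrays. The share over all genes was not tested. The gaps ran from 0.019 (Alb, control ASO 4) to 3.20 log2 units (Saa3, control ASO 4). Wild type 2 was not set apart in this way for any member. Control ASO 4 was set apart as the high array for Saa3 (11.42), Apcs (11.19), Hpx (12.89), Cp (11.43), Cd14 (7.95) and Socs3 (6.22), and as the low one for Alb (13.56). ACAT2 ASO 1 was the high array for Fgb (12.99), Itih3 (12.13) and Trf (13.16). These are 2 of the 3 arrays with the lowest correlation to their groups. Both had the highest Kupffer cell, lymphocyte, platelet and sinusoidal endothelial marker means of their group. The role of these cells in the values was not tested.

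Transgenic 2 was low for Lbp (8.39) and Trf (13.09), and wild type 3 was low for Alb (13.47) and high for F7 (9.20). In the ASO model Il6ra was low on ACAT2 ASO 2 (7.75), Kng1 low on ACAT2 ASO 4 (12.28), C1s1 low on control ASO 1 (10.27), Masp2 high on control ASO 1 (9.04) and Serpinc1 high on control ASO 2 (12.62).

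The C8g effect differed between the models by -0.61 (ASO effect minus transgenic effect, limma adjusted p = 0.011). It did not pass with the replicate block (limma adjusted p = 0.084) or without the 3 divergent arrays (limma adjusted p = 0.072).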

How the results depend on the processing

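With each alternative run in each comparison, the number of members called was 0. These were the filter on low values, array centring, quantile normalization by model, averaging or testing singly all probe sets of a gene, the comparison's own arrays, a trended robust variance, array weights, the replicate block, an adjusted p under 0.01, a fold minimum of 1.5, each array left out, and the 3 divergent arrays left out together. The last was added after the data were seen, as were the alternatives for the spread. With the replicate block 0 members were called in the transgenic, ASO and difference tests, and 2, 18 and 12 genes over the whole array set, against 39, 102 and 183. Called genes over the whole set also numbered 465 with array weights in the ASO comparison, and 13 and 17 in fits of the transgenic and ASO arrays alone.

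The median of the negative acute phase genes in the transgenic comparison, -0.0082, was 0.0058 with the mean of probe sets and ran from -0.022 to 0.0025 with single arrays left out. Values near 0 changed sign. Rbp4 after ACAT2 ASO was 0.00064 with centred arrays and ran from -0.028 to 0.020 with single arrays left out (0.015 without ACAT2 ASO 1, 0.0027 without control ASO 2). Ttr in transgenic liver was 0.0084 with the mean of probe sets and ran from -0.043 to 0.0031 (without transgenic 3). Il1rn after ACAT2 ASO was 0.017 with array weights, 0.014 without ACAT2 ASO 2, 0.060 without control ASO 4 (the range being -0.083 to 0.060) and 0.025 without the 3 divergent arrays. Alb after ACAT2 ASO ran from -0.00083 (without control ASO 4) to 0.0087. The C8g call after ACAT2 ASO was lost with quantile normalization (limma adjusted p = 0.058), its own 8 arrays (0.162), the replicate block (0.127) and 6 of the 8 single-array omissions. The C8g difference of effects was lost with the replicate block (0.084). The cause was not tested. Genes near the top of the scale limit what can be seen of a rise.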
